A study of Homo sapiens with 9 samples.

Results

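The genes described here encode the 9 enzymes that carry squalene to cholesterol: SQLE, LSS, CYP51A1, MSMO1, NSDHL, HSD17B7, EBP, SC5D and DHCR7. They were taken by name, in pathway order, with every probe set listed for that gene alone, from a table of 54675 probe sets. Of the 9 genes, 8 were measured in this way, by 19 probe sets, among 19775 genes with such a probe set. CYP51A1, the lanosterol 14-alpha-demethylase, was covered only by 2 probe sets that are also listed for LRRD1, so it has no value here.

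The series compared gene expression in U2OS, a human osteosarcoma cell line, after RNA interference against BAP1, a nuclear deubiquitinase and tumour suppressor. Its 3 groups were cells given the plasmid shBAP1 #1, cells given the plasmid shBAP1 #2, and cells given the plasmid shControl, whose hairpin targets no gene, with 3 arrays in each group. Cells of all 3 groups were transfected with a cationic lipid reagent, selected in puromycin and held at the G1/S border by a double thymidine block, so every comparison is between arrested, selected cells. The labels number 3 replicates per group without saying whether they were separate cultures, so the p-values measure only the spread between these arrays, which may be technical. The level of BAP1 mRNA was not analysed here. Since RNA came from bulk cultures, fewer cells that express a gene and less RNA per cell cannot be told apart.

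Cholesterol is built in the endoplasmic reticulum. The mevalonate pathway supplies squalene, SQLE oxidises it in a rate-limiting step, LSS closes the rings to lanosterol, and the remaining enzymes strip methyl groups, shift and add double bonds, and finish the molecule. Transcription of these genes is driven by SREBP-2, a membrane-bound factor that SCAP escorts to the Golgi when sterols are low and that INSIG proteins hold back when sterols are high, and SREBP acts on promoters together with NF-Y and Sp1.

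The sequences below are the 250 bases before the annotated start of 4 of the genes, from RefSeq on GRCh38.p14, read on the gene's own strand. EBP and HSD17B7 are shown because their fall with shBAP1 #2 held in every fit tried, and MSMO1 and NSDHL because they hold the most copies of the NF-Y motif. Capitals mark CCAAT or its reverse complement ATTGG.
MSMO1, chr4:165327419-165327668, plus strand: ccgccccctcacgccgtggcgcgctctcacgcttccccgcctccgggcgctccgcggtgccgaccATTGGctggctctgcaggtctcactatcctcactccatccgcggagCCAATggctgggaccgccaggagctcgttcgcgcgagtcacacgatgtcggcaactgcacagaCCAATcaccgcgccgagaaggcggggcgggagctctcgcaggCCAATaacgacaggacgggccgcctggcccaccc
NSDHL, chrX:152830813-152831062, plus strand: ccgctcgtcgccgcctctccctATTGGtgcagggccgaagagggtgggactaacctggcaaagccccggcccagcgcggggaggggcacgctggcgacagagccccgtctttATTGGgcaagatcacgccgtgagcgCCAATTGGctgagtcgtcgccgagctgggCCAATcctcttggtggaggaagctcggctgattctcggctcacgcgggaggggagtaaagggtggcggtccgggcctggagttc
HSD17B7, chr1:162790452-162790701, plus strand: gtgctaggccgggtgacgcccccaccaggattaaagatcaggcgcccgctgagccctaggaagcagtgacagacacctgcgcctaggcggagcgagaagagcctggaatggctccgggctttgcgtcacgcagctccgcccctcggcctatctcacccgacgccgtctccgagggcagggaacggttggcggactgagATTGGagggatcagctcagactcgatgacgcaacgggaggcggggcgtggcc
EBP, chrX:48521558-48521807, plus strand: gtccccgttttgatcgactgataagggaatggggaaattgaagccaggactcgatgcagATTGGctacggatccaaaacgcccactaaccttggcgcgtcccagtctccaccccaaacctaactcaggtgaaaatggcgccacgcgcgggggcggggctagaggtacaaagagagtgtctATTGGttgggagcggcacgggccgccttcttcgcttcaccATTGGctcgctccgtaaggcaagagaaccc

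Windows of 8 of the 9 genes, all but SQLE, were searched on both strands for 3 motifs. CCAAT was present in 7 of these 8 genes, against 37.0% of the 27305 genes with a window in the RefSeq table. It occurred 5 times in NSDHL, where 2 copies on opposite strands overlap, 4 times in MSMO1, 3 times in EBP and once in HSD17B7. The Sp1 motif GGGCGG was also present in 7 of the 8 genes, against 46.2% of all genes with a window. TCACNCCAC, a form of the sterol regulatory element, was found in 0 of the 8 genes, against 1.09% of all genes, which says only that these letters do not occur in these windows. These matches describe sequence and were not set against the expression values.

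Expression is given as the deposited log2 value of each probe set, so a difference of 1 is a doubling, and levels are compared only within a probe set. Each gene is represented by its probe set with the highest mean, and the other probe sets are given beside it. A difference is called when limma's adjusted p, by Benjamini-Hochberg over all 54613 probe sets tested, is below 0.05. The genes were chosen by values of these arrays, the changes of cholesterol genes with shBAP1 #1 against shControl, so shBAP1 #1 against shControl is given as a description, without p-values.

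The hairpins differed across the pathway. With shBAP1 #1, 7 of the 8 measured genes stood above shControl, by 0.62 to 0.96, and EBP was not past the threshold. With shBAP1 #2, no gene rose, while EBP, HSD17B7 and DHCR7 fell, and SQLE, LSS, MSMO1, NSDHL and SC5D did not pass the threshold. All 8 genes were lower with shBAP1 #2 than with shBAP1 #1, by 0.53 to 1.42. The plot of array values by gene shows these levels.

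**Figure D1:**
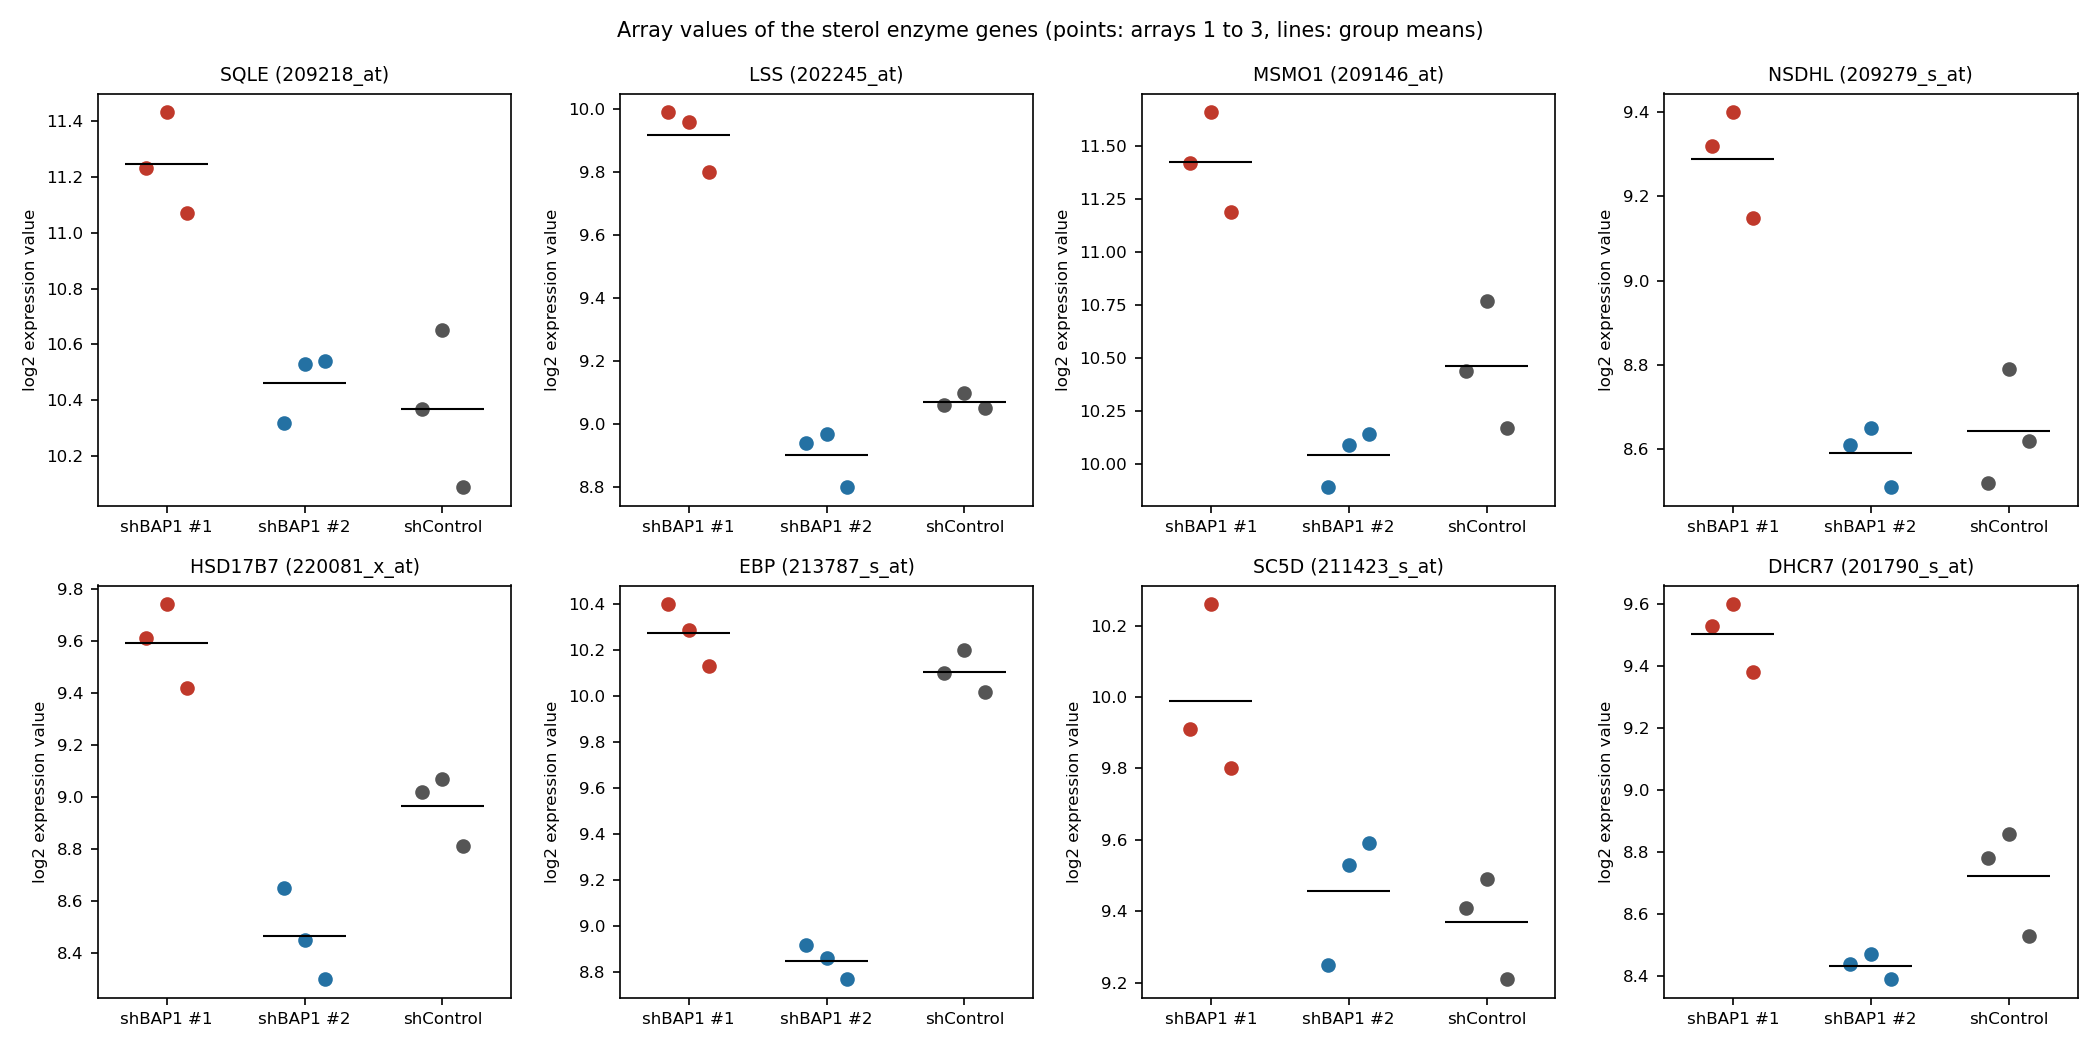
Deposited log2 expression value (vertical axis, separate scale per panel) of the representative probe set of each measured gene on the 3 arrays of shBAP1 #1, shBAP1 #2 and shControl; points are arrays 1 to 3 from left to right and lines are group means. The shBAP1 #1 arrays lie above the rest in every panel but EBP, where shBAP1 #1 and shControl overlap and the shBAP1 #2 arrays lie between 8.77 and 8.92.

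SQLE encodes squalene epoxidase, a control point of the pathway. Its probe set 209218_at read 11.23, 11.43 and 11.07 with shBAP1 #1, 10.32, 10.53 and 10.54 with shBAP1 #2, and 10.37, 10.65 and 10.09 with shControl. The shBAP1 #1 arrays were all above the other 6, and the shBAP1 #2 arrays lay inside the range of shControl. The difference from shControl was 0.88 ± 0.14 (SE, n = 3 arrays per group, as in all differences below) for shBAP1 #1 and 0.10 ± 0.14 for shBAP1 #2, with a 95% interval of -0.21 to 0.41 and an adjusted p of 0.695. Between the hairpins, shBAP1 #2 minus shBAP1 #1 was -0.78 (adjusted p = 0.00177).

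The 3 other SQLE probe sets did not all behave alike. Probe sets 213577_at and 213562_s_at differed from shControl by 0.78 and 0.90 with shBAP1 #1 and by 0.00 and 0.14 with shBAP1 #2, close to 209218_at. The dimmer 1557352_at read 7.31, 7.08 and 6.99 with shBAP1 #1, 5.76, 5.39 and 5.50 with shBAP1 #2, and 6.14, 6.44 and 5.79 with shControl. It was 1.00 above shControl with shBAP1 #1 and fell by 0.58 with shBAP1 #2 (SE 0.16, adjusted p = 0.0211). That call was lost in 4 of the 9 fits that each left out 1 array, with an adjusted p of up to 0.0879. Over the 9 arrays its correlation with the other SQLE probe sets was 0.81 to 0.89, against 0.98 to 1.00 among those 3.

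LSS, the lanosterol synthase gene, read 9.99, 9.96 and 9.80 with shBAP1 #1, 8.94, 8.97 and 8.80 with shBAP1 #2, and 9.06, 9.10 and 9.05 with shControl on probe set 202245_at. The groups did not overlap, although shBAP1 #2 and shControl lay close. The difference from shControl was 0.84 ± 0.08 with shBAP1 #1 and -0.17 ± 0.08 with shBAP1 #2 (adjusted p = 0.154). Its other probe sets, 211019_s_at and 211018_at, stood 0.68 and 0.42 above shControl with shBAP1 #1, and differed by -0.17 and 0.10 with shBAP1 #2, neither of which was called.

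MSMO1 encodes the C4-methylsterol oxidase, which starts removal of the methyl groups at carbon 4. Its only probe set, 209146_at, read 11.42, 11.66 and 11.19 with shBAP1 #1, 9.89, 10.09 and 10.14 with shBAP1 #2, and 10.44, 10.77 and 10.17 with shControl. The 3 groups did not overlap, with shBAP1 #1 at the top and shBAP1 #2 at the bottom. The difference from shControl was 0.96 ± 0.16 with shBAP1 #1, the largest among the representative probe sets, and -0.42 ± 0.16 with shBAP1 #2. The value with shBAP1 #2 missed the threshold (adjusted p = 0.0819, 95% interval -0.76 to -0.07), and passed it without shControl replicate 3, at -0.56 (adjusted p = 0.0248).

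NSDHL and HSD17B7 act after MSMO1, as the sterol decarboxylase and the ketone reductase of the same demethylation cycle. NSDHL 209279_s_at read 9.32, 9.40 and 9.15 with shBAP1 #1, 8.61, 8.65 and 8.51 with shBAP1 #2, and 8.52, 8.79 and 8.62 with shControl. Here the shBAP1 #2 and shControl arrays overlapped, and the difference was -0.05 ± 0.09 (adjusted p = 0.764, 95% interval -0.25 to 0.15), against 0.65 ± 0.09 with shBAP1 #1. The other NSDHL probe set, 215093_at, gave 0.58 with shBAP1 #1 and -0.22 with shBAP1 #2 (adjusted p = 0.119).

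HSD17B7 220081_x_at read 9.61, 9.74 and 9.42 with shBAP1 #1, 8.65, 8.45 and 8.30 with shBAP1 #2, and 9.02, 9.07 and 8.81 with shControl. The 3 groups were apart, in the same order as for MSMO1. HSD17B7 was 0.63 ± 0.11 above shControl with shBAP1 #1 and fell by 0.50 with shBAP1 #2 (SE 0.11, adjusted p = 0.00789). It has this probe set alone, and the suffix of its name marks probes that may also match other transcripts.

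EBP encodes the sterol isomerase that moves the double bond of the second ring, and it departed from the other genes. Its probe set 213787_s_at read 10.40, 10.29 and 10.13 with shBAP1 #1, 8.92, 8.86 and 8.77 with shBAP1 #2, and 10.10, 10.20 and 10.02 with shControl. The shBAP1 #1 and shControl arrays overlapped, while every shBAP1 #2 array lay at least 1 unit below them. EBP fell by 1.26 with shBAP1 #2, 2.39-fold (SE 0.09, adjusted p = 9.98e-06), and differed by 0.17 ± 0.09 with shBAP1 #1, with a 95% interval of -0.03 to 0.36.

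Probe set 202735_at gave EBP values of 9.71, 9.78 and 9.67 with shBAP1 #1, 8.53, 8.48 and 8.42 with shBAP1 #2, and 9.73, 9.76 and 9.67 with shControl. The shBAP1 #1 and shControl arrays covered nearly the same range, and the estimate was 0.00 ± 0.06 (95% interval -0.14 to 0.14). With shBAP1 #2 it fell by 1.25 (SE 0.06, adjusted p = 3.08e-06), and 213789_at fell by 1.20 (adjusted p = 4.1e-05). The fourth, 231320_at, was dim, under the median level of the table, was not called in any comparison and correlated with the other EBP probe sets at only 0.26 to 0.38 over the 9 arrays.

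SC5D, the desaturase that forms the conjugated double bond, read 9.91, 10.26 and 9.80 with shBAP1 #1, 9.25, 9.53 and 9.59 with shBAP1 #2, and 9.41, 9.49 and 9.21 with shControl on 211423_s_at. The shBAP1 #2 and shControl arrays overlapped. The difference from shControl was 0.62 ± 0.13 with shBAP1 #1 and 0.09 ± 0.13 with shBAP1 #2 (adjusted p = 0.718). The dim 215064_at, at 3.84 to 4.20 on all arrays, stood 0.26 above shControl with shBAP1 #1, and no longer passed the threshold there with the replicate number as a block or without shBAP1 #1 replicate 1, shBAP1 #1 replicate 2, shControl replicate 2 or shControl replicate 3, each left out alone.

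DHCR7 encodes the reductase that turns 7-dehydrocholesterol into cholesterol. Its probe set 201790_s_at read 9.53, 9.60 and 9.38 with shBAP1 #1, 8.44, 8.47 and 8.39 with shBAP1 #2, and 8.78, 8.86 and 8.53 with shControl. The 3 groups were apart. The difference from shControl was 0.78 ± 0.09 with shBAP1 #1 and -0.29 ± 0.09 with shBAP1 #2 (adjusted p = 0.0471). On 201791_s_at the differences were 0.90 ± 0.10 and -0.32 ± 0.10 (adjusted p = 0.0356).

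The DHCR7 calls with shBAP1 #2 were close to the threshold. The call of 201790_s_at was lost in 7 of the 9 fits that each left out 1 array, with an adjusted p of up to 0.167, and with the shBAP1 #1 arrays out of the fit (adjusted p = 0.0608). That of 201791_s_at was lost in 4 of 9, with an adjusted p of up to 0.129. The EBP calls of 213787_s_at, 202735_at and 213789_at and the HSD17B7 call were kept in all 9 fits.

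**Figure D2:**
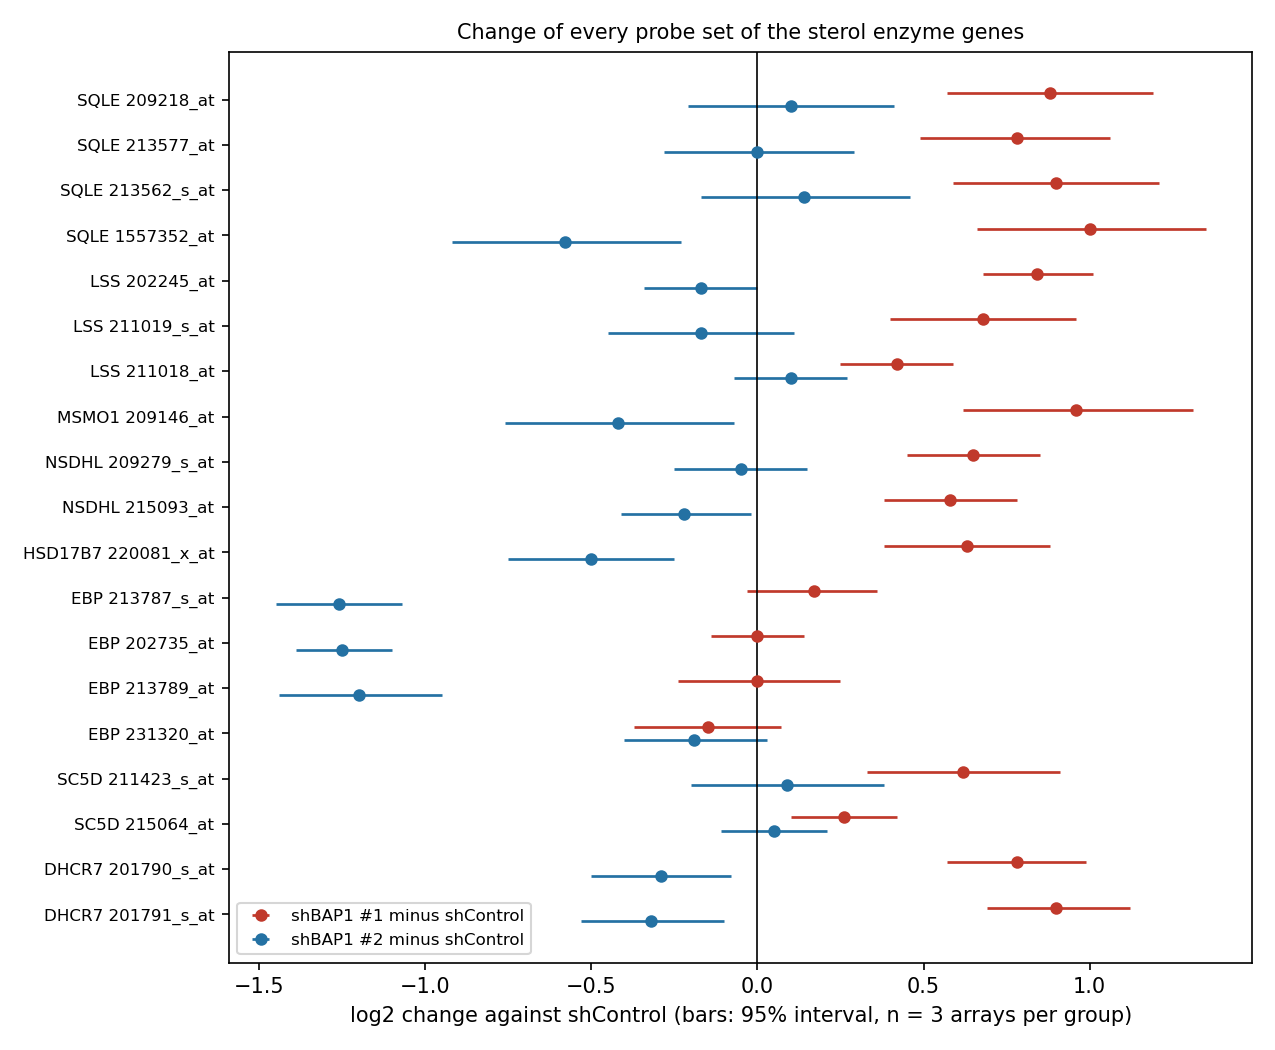
Log2 change against shControl (horizontal axis) of all 19 probe sets in pathway order; red points are shBAP1 #1 minus shControl, blue points shBAP1 #2 minus shControl, and bars are 95% intervals from 3 arrays per group. The red points lie right of 0 except for the 4 EBP probe sets, which lie between -0.15 and 0.17, and the blue points reach furthest left at 3 EBP probe sets.

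Over the probe sets, 0 of 19 were called higher and 7 lower with shBAP1 #2 against shControl, where 12.6% of all probe sets were called higher and 11.5% lower. The 7 were 3 of EBP, 2 of DHCR7, HSD17B7 220081_x_at and SQLE 1557352_at. The count was 4, those of EBP and HSD17B7, without shBAP1 #2 replicate 2, shBAP1 #2 replicate 3, shControl replicate 1 or shControl replicate 2, each left out alone. By gene, 0 were called higher and 3 of 8 lower, against 15.8% and 15.5% of all genes, and the median change was -0.23, against 0.016 over all genes.

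Against shControl, shBAP1 #1 had 15 of the 19 probe sets past the threshold upward and 0 downward, where 8.98% and 8.76% of all probe sets were called in these directions. By gene this was 7 of 8 and 0, where the shares over all genes were 11.9% and 11.5%. The median was 0.72, against 0.007 over all genes. These counts come from the comparison behind the choice of the genes and are given as a description.

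Set against shBAP1 #1, shBAP1 #2 had 17 of the 19 probe sets called lower and 0 higher, where 12.5% of all probe sets were called lower and 13.0% higher. The other two were EBP 231320_at, at -0.04, and SC5D 215064_at, at -0.21 (adjusted p = 0.0526). By gene, 8 of 8 were called lower and 0 higher, against 16.5% and 16.1% of all genes, and the median was -1.04, against 0.006. EBP led at -1.42 (adjusted p = 3.36e-06), followed by MSMO1 at -1.38 (8.97e-05), HSD17B7 at -1.12 (4.31e-05), DHCR7 at -1.07 (2.01e-05) and LSS at -1.01 (8.23e-06). SQLE at -0.78, NSDHL at -0.70 (0.000221) and SC5D at -0.53 (0.0116) were smaller. This comparison contains the shBAP1 #1 arrays, and shBAP1 #2 against shControl contains the shControl arrays, that entered the comparison behind the choice, so neither is free of it.

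HSD17B7 and DHCR7 were past the threshold upward with shBAP1 #1 and downward with shBAP1 #2, as were 4 of the 19 probe sets. None of the 19 was past it in the same direction with both. Among all 54613 probe sets, 1234 were past the threshold in opposite directions and 4105 in the same direction. Among all 19775 genes these counts were 583 and 2060, against 2 and 0 of the 8 genes. Both comparisons use the same shControl arrays. The 4 probe sets were those of HSD17B7 and DHCR7 and the dimmer one of SQLE. In the 9 fits that each left out 1 array, the DHCR7 and SQLE ones lost the downward call 4 to 7 times. The HSD17B7 one lost it 0 times.

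Arrays of a group also differed over the genes. Against the shControl mean, the median of the 8 genes was 0.74, 0.89 and 0.58 on the shBAP1 #1 arrays, -0.21, -0.18 and -0.30 on the shBAP1 #2 arrays, and -0.00, 0.13 and -0.15 on the shControl arrays. Replicate 3 was the lowest array for 8 of 8 genes in shBAP1 #1 and for 7 of 8 in shControl, and replicate 2 was the highest for 6 in shBAP1 #1 and 8 in shControl. The shBAP1 #2 arrays had no such common order: replicates 1, 2 and 3 were the highest for 2, 3 and 3 genes and the lowest for 3, 0 and 5. Over all probe sets, same-numbered arrays of shBAP1 #1 and shControl also deviated together from their group means (r = 0.19, 0.13 and 0.30). The order of the replicates was not counted over all genes, so it is not read as particular to these 8. As a description over the 9 arrays, which share the group structure, the correlation between MSMO1 and DHCR7 was 0.99 and that between LSS and NSDHL 0.98. EBP gave the lowest, 0.48 with SQLE and 0.42 with SC5D. For deviations from group means, the correlation was highest for SQLE with MSMO1, at 0.99. It was lowest for EBP with SC5D, at 0.18, next to LSS with SC5D at 0.19.

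The genes whose profile over the 9 arrays was most like the mean centred profile of the 8 were P3H1 (r = 0.995), PDLIM7 (0.988), MTMR3 (0.988), MTHFD2L (0.987), SREBF2 (0.986) and CALR (0.986), out of 7925 genes compared. These genes were picked for this likeness, and SREBF2, which encodes SREBP-2, is also in the list of SREBP regulation.

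The counts in the 5 related lists below stand beside these shares of all genes: 15.8% called higher and 15.5% lower with shBAP1 #2, 16.1% higher and 16.5% lower with shBAP1 #2 than with shBAP1 #1, and 11.9% higher and 11.5% lower with shBAP1 #1. For lists of 7 to 13 genes these shares amount to about 1 or 2 genes in each direction, so counts of that size are near the background.

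The earlier steps of the pathway, up to squalene, showed part of this pattern. Of 8 measured mevalonate pathway genes, 0 rose and 4 fell with shBAP1 #2, with a median of -0.31, and 5 were lower and 0 higher than with shBAP1 #1. HMGCS1, which makes hydroxymethylglutaryl-CoA, fell by 1.88 (adjusted p = 0.000461), and ACAT2, the cytosolic thiolase, by 1.21 (adjusted p = 8.58e-06). IDI1, the isopentenyl diphosphate isomerase gene, fell by 0.70 (adjusted p = 0.000213), and FDPS, the farnesyl diphosphate synthase gene, by 0.45 (adjusted p = 0.00182). With shBAP1 #1 HMGCS1, ACAT2 and FDPS differed from shControl by 0.54, 0.13 and -0.22, none past the threshold, while IDI1 was past it downward, at -0.41. In all, 2 of the 8 genes were past the threshold upward and 1 downward, and the median was 0.18. That count of 2 was 1 with the replicate number as a block, 0 without shBAP1 #1 replicate 1, shBAP1 #1 replicate 2 or shControl replicate 1, and 1 without shControl replicate 2 or shControl replicate 3.

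HMGCS1, like EBP, was past the threshold with shBAP1 #2 and not with shBAP1 #1 on its representative probe set. It read 10.05, 10.90 and 10.24 with shBAP1 #1, 8.24, 8.24 and 7.46 with shBAP1 #2, and 10.17, 9.93 and 9.49 with shControl. The mean of its probe sets was 0.67 above shControl with shBAP1 #1, past the threshold.

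Partner genes of the sterol enzymes went different ways. Of 7 measured, 3 rose and 1 fell with shBAP1 #2 (median 0.21), 2 were higher and 2 lower than with shBAP1 #1 (median 0.09), and 3 were past the threshold upward and 0 downward with shBAP1 #1 (median 0.13). LBR, a nuclear envelope protein with sterol reductase activity, rose by 0.73 with shBAP1 #2 (adjusted p = 0.000117). POR, the electron donor of CYP51A1 and SQLE, differed by 0.55 with shBAP1 #1 and -0.19 with shBAP1 #2 (adjusted p = 0.311). The fall was that of CYB5R3, the cytochrome b5 reductase gene, at -0.81, although its shBAP1 #2 and shControl arrays overlapped. CYB5R3 differed from shControl by 0.96 with shBAP1 #1, past the threshold. Its shBAP1 #2 minus shBAP1 #1 difference was -1.77 (adjusted p = 0.000145), larger than that of any of the 8 enzyme genes. The fall with shBAP1 #2 was lost without shBAP1 #2 replicate 2, shBAP1 #2 replicate 3, shControl replicate 1 or shControl replicate 3. The count of falls was 2 without shBAP1 #2 replicate 1. The 2 genes higher than with shBAP1 #1 became 1 without any of the shBAP1 #1 arrays, shBAP1 #2 replicate 2, shBAP1 #2 replicate 3 or shControl replicate 1, each left out alone.

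Among 9 measured genes of SREBP regulation, 2 rose and 5 fell with shBAP1 #2 (median -0.26), 1 was higher and 3 lower than with shBAP1 #1 (median -0.21), and 4 were past the threshold upward and 3 downward with shBAP1 #1 (median 0.05). INSIG1, the retention factor that is itself a sterol-repressed gene, had the largest change of the 9. Its probe set 201626_at read 9.60, 9.64 and 9.33 with shBAP1 #1, 5.58, 5.33 and 4.81 with shBAP1 #2, and 8.60, 8.84 and 8.15 with shControl. It was 0.99 ± 0.21 above shControl with shBAP1 #1 and fell by 3.29 with shBAP1 #2 (SE 0.21, adjusted p = 7.12e-06). Its other probe sets, 201625_s_at and 201627_s_at, were 0.93 and 1.07 above shControl with shBAP1 #1 and differed by -1.27 (adjusted p = 1.59e-05) and -2.08 (adjusted p = 1.02e-05) with shBAP1 #2, so the size of the fall differs between probe sets. SREBF2 read 8.58, 8.64 and 8.54 with shBAP1 #1, 7.60, 7.58 and 7.59 with shBAP1 #2, and 7.99, 8.11 and 7.88 with shControl. The 3 groups of SREBF2 were apart, and it differed from shControl by 0.60 ± 0.07 with shBAP1 #1 and -0.40 ± 0.07 with shBAP1 #2 (adjusted p = 0.00213). INSIG2, the paralogue of INSIG1, went the other way, at -0.52 with shBAP1 #1 and 0.30 with shBAP1 #2 (adjusted p = 0.0535). SREBF1, the gene of SREBP-1, stood below shControl with both, by -0.81 and -1.02 (adjusted p for shBAP1 #2 = 0.00101). The 2 rises became 1 without shBAP1 #2 replicate 1, shBAP1 #2 replicate 2, shControl replicate 1 or shControl replicate 2, and the 3 lower genes became 5 without shBAP1 #2 replicate 1.

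Of 13 measured genes of cholesterol uptake, transport and export, 2 rose and 3 fell with shBAP1 #2 (median 0.02), 3 were higher and 5 lower than with shBAP1 #1 (median -0.10), and 5 were past the threshold upward and 1 downward with shBAP1 #1 (median 0.23). NCEH1, a cholesteryl ester hydrolase, had the largest change of the 13 and went another way than the enzymes: it was below shControl with both hairpins, at -2.02 with shBAP1 #1 and -1.15 with shBAP1 #2 (adjusted p = 0.000294), and 0.87 higher with shBAP1 #2 than with shBAP1 #1 (adjusted p = 0.00144). STARD4, a cytosolic sterol carrier, differed by 1.08 with shBAP1 #1 and -0.04 with shBAP1 #2 (adjusted p = 0.899). TMEM97, a sterol-responsive membrane protein, fell by 0.96 with shBAP1 #2 (adjusted p = 0.000165) and differed by 0.23 with shBAP1 #1. The count of 5 was 3 without shBAP1 #1 replicate 1, shBAP1 #1 replicate 2, shControl replicate 1 or shControl replicate 3.

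Of 9 measured fatty acid synthesis genes, 1 rose and 5 fell with shBAP1 #2 (median -0.28), 2 were higher and 7 lower than with shBAP1 #1 (median -0.50), and 4 were past the threshold upward and 1 downward with shBAP1 #1 (median 0.05). FASN, the fatty acid synthase gene, differed by 0.71 with shBAP1 #1 and -0.15 with shBAP1 #2 (adjusted p = 0.304). ELOVL6, a fatty acid elongase, was below shControl by -1.66 with shBAP1 #1 and fell by 0.94 with shBAP1 #2 (adjusted p = 0.000546). The 5 falls were 3 without shBAP1 #2 replicate 3 or shControl replicate 1.

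**Figure D3:**
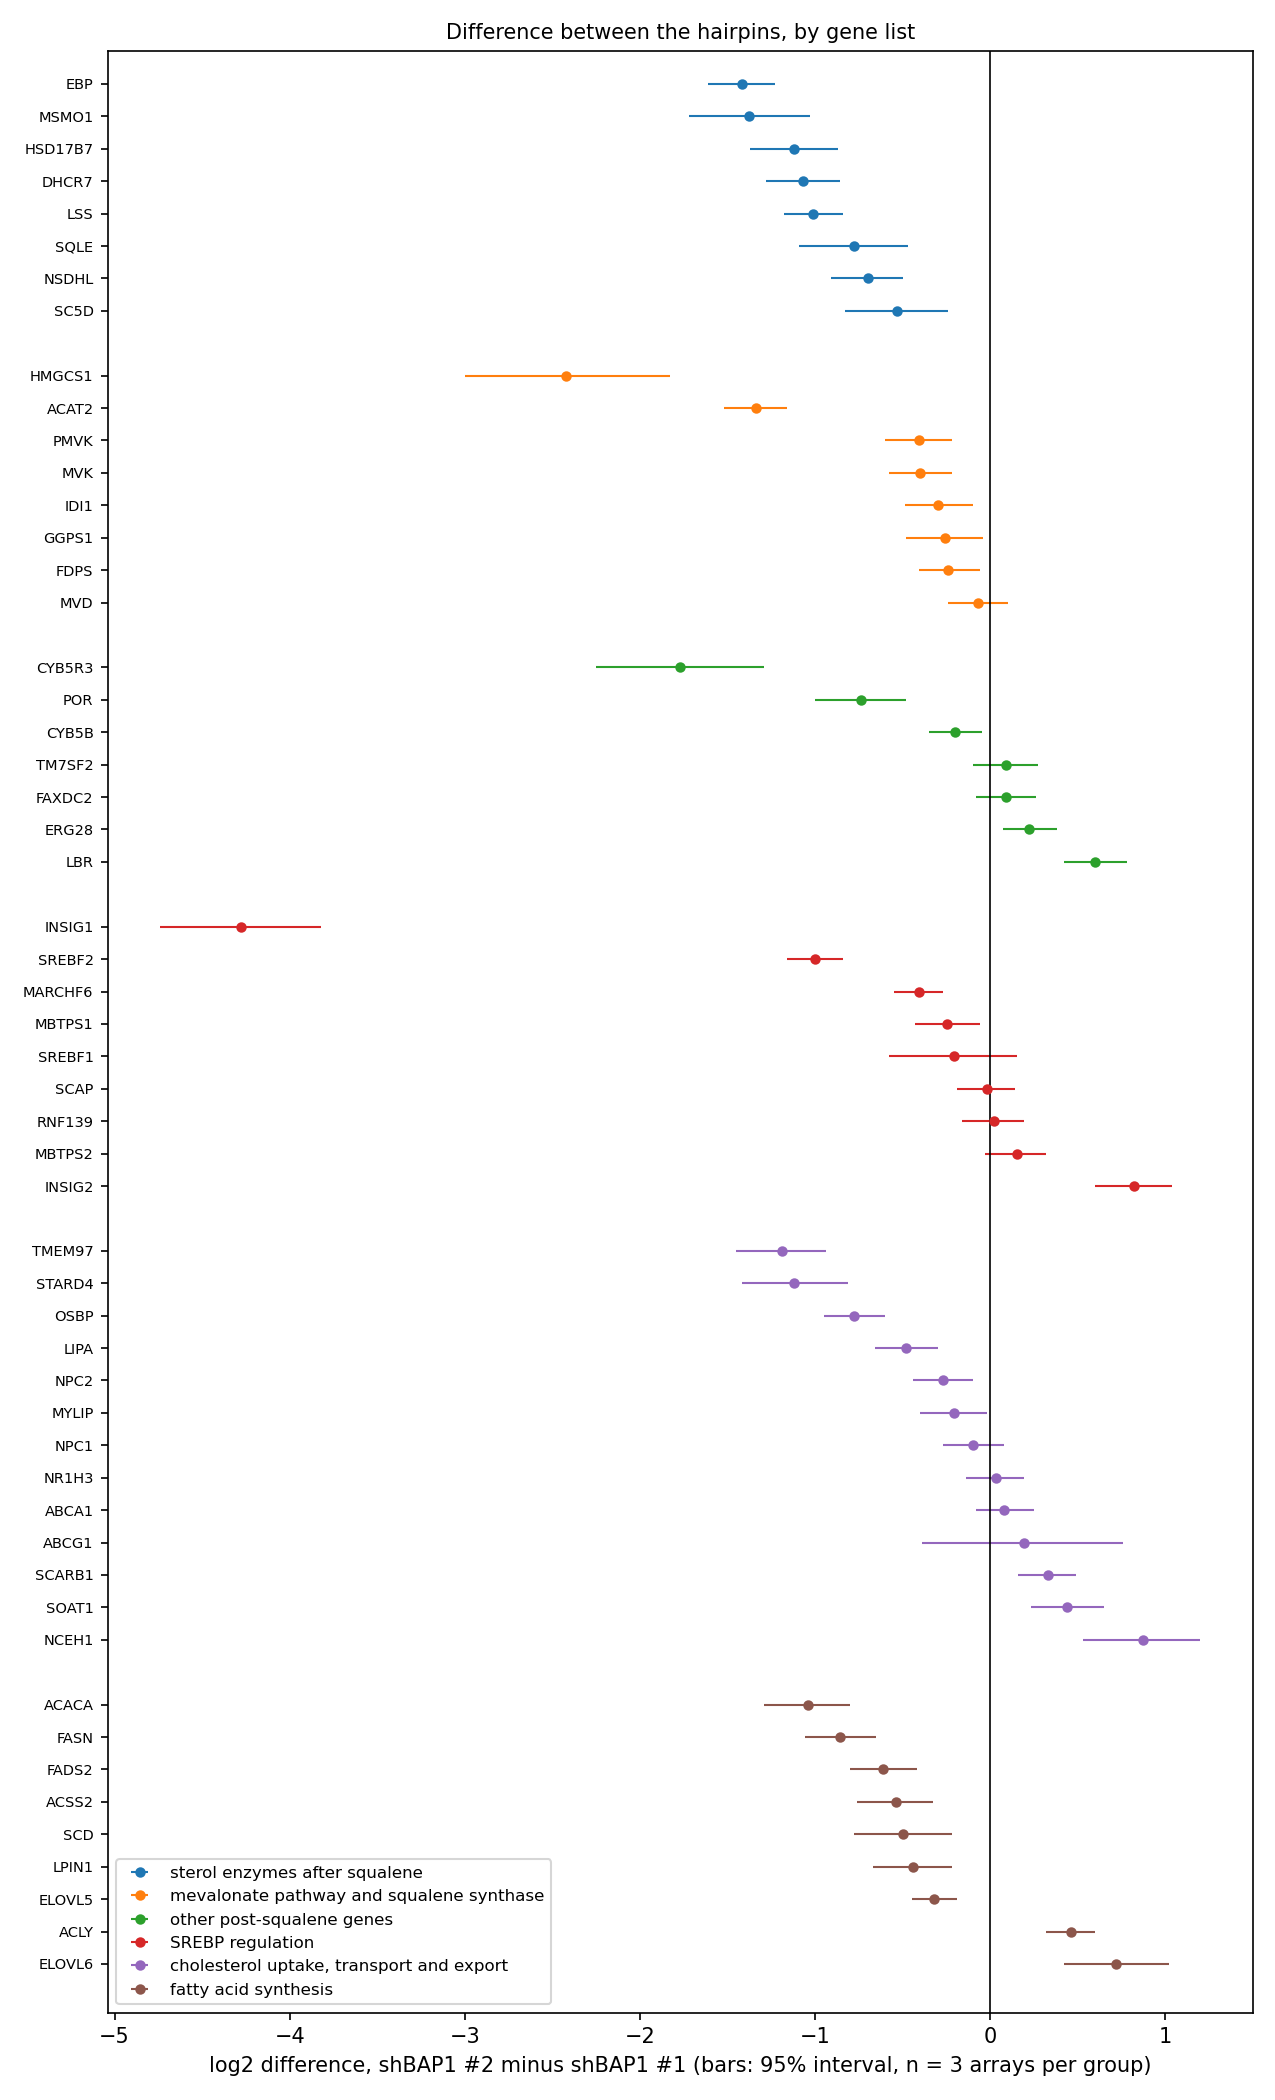
Log2 difference of shBAP1 #2 minus shBAP1 #1 (horizontal axis) for the representative probe set of each sterol enzyme gene and of the genes in 5 related lists, coloured by list; bars are 95% intervals from 3 arrays per group. The 8 enzyme genes all lie left of 0, from -1.42 to -0.53, while LBR at 0.60, INSIG2 at 0.82 and NCEH1 at 0.87 lie right of it and INSIG1 lies at -4.28.

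Array medians were 5.397 to 5.446, and correlations between arrays were 0.994944 to 0.997414 within groups and 0.976456 to 0.990344 between groups. Replicate 1 of shBAP1 #2 stood nearer the shControl arrays (mean r = 0.989) than replicates 2 and 3 (0.981 each). Without it, the counts of the 19 probe sets were 15 upward for shBAP1 #1, 6 lower for shBAP1 #2 against shControl and 17 lower against shBAP1 #1. The mesenchymal markers, 6 of 6 measured, summed to 61.2 to 62.1 with shBAP1 #1, 58.3 to 59.5 with shBAP1 #2 and 58.2 to 58.8 with shControl, with VIM at 13.92 to 14.17 and COL1A2, a dim one, at 4.27 to 4.73. The 3 epithelial markers summed to 14.8 to 15.1 with shBAP1 #1, 14.7 to 15.1 with shBAP1 #2 and 15.3 to 16.3 with shControl, and the 2 endothelial markers to 10.7 to 11.0 with shBAP1 #1, 11.0 to 11.2 with shBAP1 #2 and 11.8 to 12.0 with shControl. Of these, EPCAM, at 5.85 to 6.70, and PECAM1, at 6.83 to 7.79, had means above that of the median probe set. CDH1 (4.67 to 5.47), KRT19 (3.82 to 4.20) and CDH5 (3.82 to 4.19) had means below it. RUNX2, a mesenchymal marker, read 6.62 to 8.26. The 2 of 3 measured haematopoietic markers summed to 8.6 to 9.1 with shBAP1 #1, 8.5 to 8.7 with shBAP1 #2 and 8.4 to 8.7 with shControl, and the 2 hepatocyte markers to 8.5 to 8.7 with shBAP1 #1, 8.4 to 8.8 with shBAP1 #2 and 8.2 to 8.7 with shControl. The 3' minus 5' value of the actin control probe sets was 0.39 to 0.41 with shBAP1 #1, 0.39 to 0.46 with shBAP1 #2 and 0.47 to 0.51 with shControl, lower with both hairpins, and that of the GAPDH control probe sets overlapped, at -0.05 to -0.03 with shBAP1 #1, -0.04 to -0.03 with shBAP1 #2 and -0.06 to -0.02 with shControl. The part of these differences in the results was not tested.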

How the data were processed

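RNA of 9 U2OS samples was hybridised, 1 array each, to Affymetrix GeneChips as biotinylated cRNA, per the labels' protocols. The deposited table gives 1 log2 value per probe set and array, which the authors made with RMA, per the submitters' processing notes, whose version is not given in the sources used here. RMA corrects background array by array, while its quantile normalization and probe summary use all arrays at once. The arrays are therefore scaled to a common distribution, and a global shift would not show. No change of scale was made here.

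Groups and replicate numbers came from the sample labels. Of 54675 probe sets, 62 control probe sets were left out and 54613 entered a linear model per probe set with 3 groups, fitted with limma 3.58.1 in R 4.3.3 (6 residual degrees of freedom, moderated by eBayes). Tests were two-sided, p-values were adjusted by Benjamini-Hochberg over all 54613, and calls used 0.05; intervals are 95%. The number of arrays limits the precision. GEO's platform annotation gave 41091 probe sets 1 symbol, 1801 several symbols and listed none for 11721; of the 41091, 41037 matched the RefSeq gene table, and those with several symbols were not named.

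The members, gene lists, tests and alternatives were chosen with earlier results of these data known. Named genes were all members with every probe set, up to 6 per related list past the threshold in at least 1 hairpin against shControl, ranked by the larger absolute change, and the 6 most alike by Pearson r among genes at or above the median mean and with a range of at least 0.5. The lists, in measured of listed genes, are the mevalonate pathway and squalene synthase (8 of 10), partner genes after squalene (7 of 9), SREBP regulation (9 of 11), uptake, transport and export (13 of 16) and fatty acid synthesis (9 of 10); the rest were not analysed here.

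Same-numbered arrays of shBAP1 #1 and shControl deviated together from their group means over all probe sets (r = 0.19, 0.13 and 0.30). This pairing is read from the data, since the labels do not state it. The main fits, which gave the differences, intervals and calls, did not use it. The replicate number entered as a block only in alternative fits. Alternatives covered normalization, dim probe sets, the choice of probe set, the variance model, the samples fitted, the replicate block and leaving out each array. The script was tested on simulated data. Promoter windows came from RefSeq, GRCh38.p14.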

Additional observations from a re-analysis of the deposited data

Results flagged for a closer look

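The change against shControl differed between the hairpins for all 8 measured genes, by limma's test of shBAP1 #2 minus shBAP1 #1 on the representative probe set. Of all genes, 16.5% were called lower in this test. It contains the shBAP1 #1 arrays that entered the choice of the genes, so it is not free of that choice. The difference was -0.78 for SQLE, -1.01 for LSS, -1.38 for MSMO1, -0.70 for NSDHL, -1.12 for HSD17B7, -1.42 for EBP, -0.53 for SC5D and -1.07 for DHCR7 on the log2 scale. Every shBAP1 #2 array lay below every shBAP1 #1 array for these probe sets. How often this holds over all genes was not counted, so nothing is read from it. The groups hold 3 arrays each, too few for a check of single arrays against their group.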

How the results depend on the processing

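The log2 changes of the 8 genes kept direction and side of the threshold in 144 of 144 alternative fits for shBAP1 #1 against shControl, in 136 of 136 for shBAP1 #2 against shBAP1 #1, and in 126 of 136 for shBAP1 #2 against shControl, where DHCR7 lost its call 8 times and MSMO1 gained one 2 times. With 1 probe set per gene, and with the mean of a gene's probe sets, the counts became 7 upward for shBAP1 #1, 3 lower for shBAP1 #2 and 8 lower between the hairpins, since each then counts 8 genes. The mean of the probe sets also moved the median between the hairpins to -0.97, and turned the sign of ACACA with shBAP1 #2, to 0.16, and of IDI1 between the hairpins, to 0.11; the other probe sets of both genes differ from the representative. With it, the SREBP genes lower with shBAP1 #2 were 3, against 5, as were the fatty acid genes; upward with shBAP1 #1 were 4 mevalonate genes, against 2, 3 transport genes, against 5, and 2 fatty acid genes, against 4, and downward 2 transport and 2 fatty acid genes, against 1 each. The mevalonate count of 2 was 1 with median centring or only the compared groups, and the partner genes higher with shBAP1 #2 than with shBAP1 #1 were 1, against 2, with cyclic loess or only those groups; the cause was not tested. The count lower with shBAP1 #2 was 4 to 8 with 1 array left out. With a replicate block it was 8, MSMO1 being added at -0.42 (adjusted p = 0.0342), and 14 upward for shBAP1 #1; a block fitted on shBAP1 #1 and shControl alone, chosen after seeing the data, gave 15. Of the enzyme probe sets, the block changed no call but those of MSMO1 and SC5D 215064_at. Over all probe sets the replicate block gave 9718 calls, against 9690 without it, for shBAP1 #1, 13124 against 13152 for shBAP1 #2 and 13961 against 13923 between the hairpins; same-numbered arrays did not pair for shBAP1 #2 with shControl (r = 0.07, 0.11 and -0.07) or with shBAP1 #1 (0.03, 0.01 and -0.17). Signal over background is not known from the deposited values, and 2 of the 19 probe sets are dimmer than the median probe set.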
